A study of Ananas comosus with 9 samples.

Results

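In the peel of developing pineapple fruit, 76 of 26730 gene models stood high at 60 and 120 days after flowering (DAF) and low at 90 DAF, and carried no KEGG ortholog. They were selected on their mean FPKM at the 3 ages, and they were taken from the 18804 genes of the deposited table that have no KEGG ortholog (an identifier that ties a gene to a known function across species) and neither of a pair of GO (Gene Ontology) terms, DNA-binding transcription factor activity and cysteine-type peptidase activity. Mean FPKM per age, plus 0.1, had to be at least 3 at both 60 and 120 DAF, at least 3 times the 90 DAF mean at both, and less than 8 times the 60 DAF mean at 120 DAF. FPKM counts sequenced fragments per kilobase of gene, scaled to library depth, so it can be compared between genes. The dip itself is thus what the members were chosen by, and every difference between ages below is a description of them with no support drawn from it.

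The samples were peels of Ananas comosus with no treatment named, with 3 RNA libraries at each of the ages 60, 90 and 120 DAF, in a series on the colour of the peel as it matures. Poly(A) RNA was sequenced in paired ends on an Illumina instrument. The labels give tissue and age, and name no cultivar, plant or fruit. It is therefore not known whether the libraries of an age are separate fruits. The p-values set a difference between ages against the spread between these libraries, which may be technical.

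Pineapple peel is the fused outer surface of many small fruits, with an epidermis under a cuticle and green parenchyma beneath it. Over these ages the fruit leaves growth, fills with sugar and acid, and then ripens while the peel loses chlorophyll. Genes with no KEGG ortholog assigned are common in this table and include transporters, kinases, proteases and genes with no annotation. A missing KEGG ortholog does not mean that a gene lacks relatives in other species. Of the members, 5 carry a description projected from an Arabidopsis gene.

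Library totals ran from 35038248 to 52937826 counts. The 120 DAF replicate 2 library stood apart for these genes: it was the lowest library of its age in 60 of the 76 members (78.9%), against 26.3% of the 16791 genes tested, and results that rest on it are given with and without it. The 24 genes for light-harvesting proteins of green tissue (2 of them at 0 throughout) summed to 124, 252 and 175 FPKM at 60 DAF, 590, 2769 and 349 FPKM at 90 DAF and 38.2, 36.8 and 56.1 FPKM at 120 DAF, so they were highest in the libraries where the members were lowest. Summed FPKM of 28 cuticle genes (5 at 0 throughout) was 209, 182 and 193 at 60 DAF, 198, 214 and 413 FPKM at 90 DAF and 79.8, 138 and 217 FPKM at 120 DAF, with the ages overlapping. Core histones and PCNA, which mark dividing cells, rested on 2 genes, 1 of them at 0, and summed to between 33.5 and 51.5 FPKM in the 9 libraries. The part of tissue makeup in the dip was not tested. In whole peel, fewer cells of a type and less RNA per cell cannot be told apart.

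The 76 members together took 0.280, 0.314 and 0.259% of the counts of the 60 DAF libraries, 0.0444, 0.0331 and 0.0423% in the 90 DAF libraries and 0.400, 0.207 and 0.486% in those of 120 DAF. The median member stood at 11.1, 14.2 and 10.9 FPKM at 60 DAF, 1.16, 1.02 and 0.854 FPKM at 90 DAF and 12.4, 3.39 and 13.0 FPKM at 120 DAF. All 90 DAF medians lay below all others, and replicate 2 of 120 DAF was the lowest outside 90 DAF. Dip depth, taken as the smaller of the ratios of the 60 and 120 DAF means to the 90 DAF mean (each plus 0.1), had a median of 6.20 and ran from 3.01 to 119. At 90 DAF, 36 members averaged under 1 FPKM and 5 had no read in any library. Of the rest, 10 members still had over 1000 counts at 90 DAF, up to 10273, while 11 of the 76 had at most 20 counts there, so their 90 DAF level is known poorly. Most members were modest in level, with 46 averaging under 10 FPKM over the 9 libraries and 11 averaging at least 50 FPKM.

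**Figure D1:**
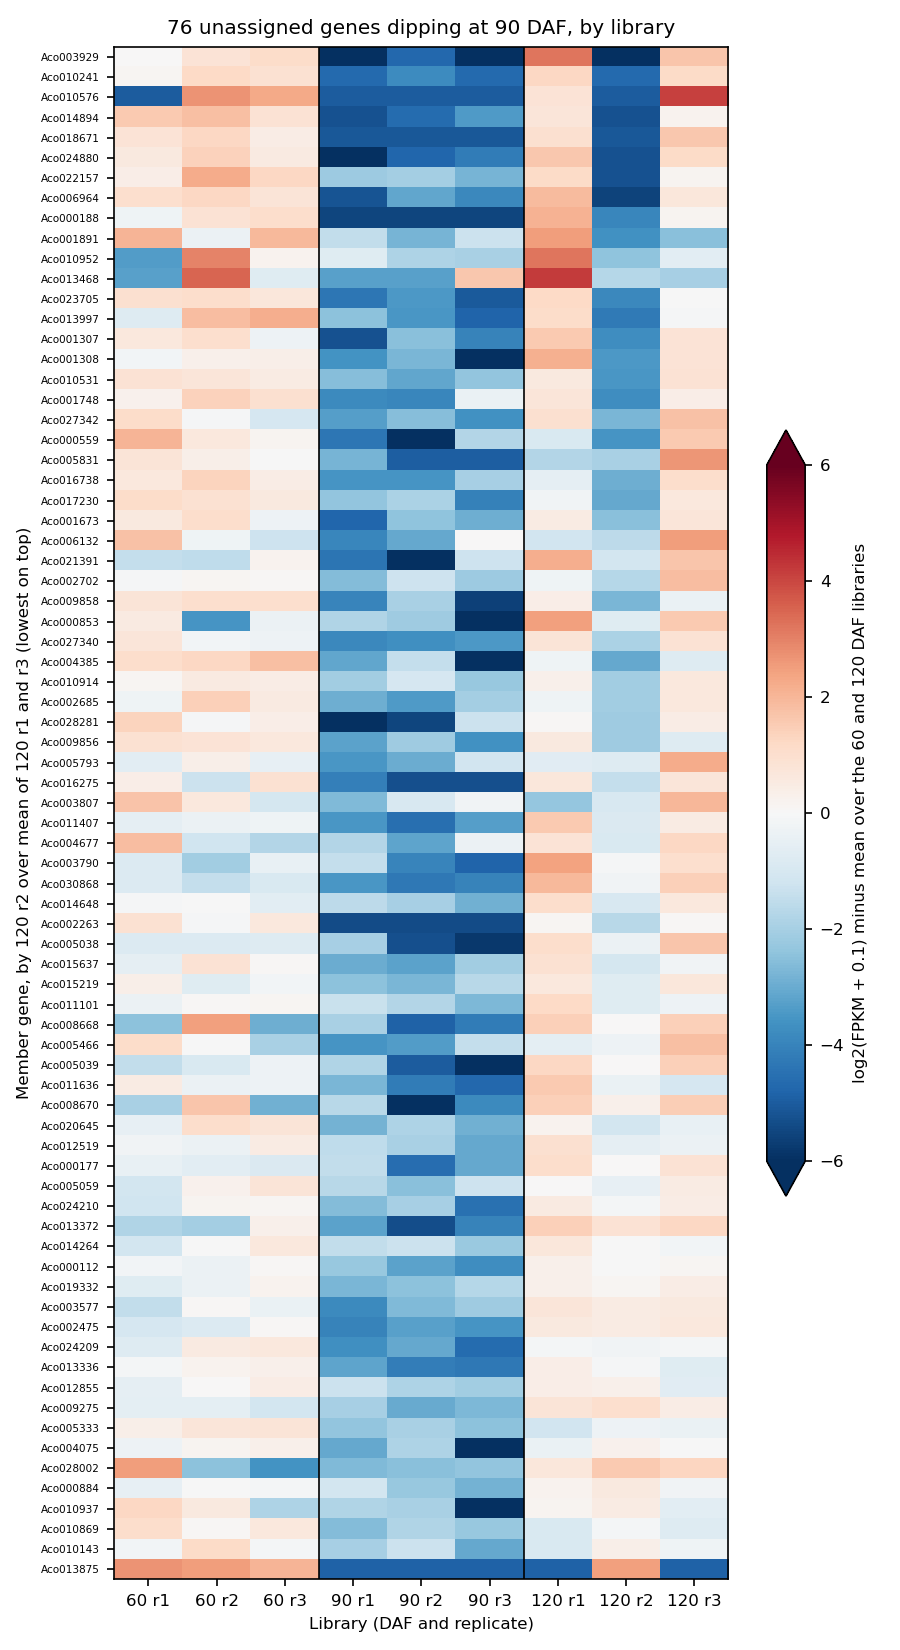
Each row is 1 of the 76 members and each column 1 of the 9 libraries, and the colour is log2(FPKM + 0.1) minus the gene's mean over the 60 and 120 DAF libraries, with rows ordered by the level of 120 DAF replicate 2 relative to the other libraries of its age. The 90 DAF columns are low in most rows, and the column of 120 DAF replicate 2 is low in the upper rows. In 32 members it lies at or below the highest 90 DAF library.

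Not every member dipped in every library. In 35 of the 76 each 90 DAF library lay below each 60 and 120 DAF library, where 3.13% of all genes tested did so, and with 120 DAF replicate 2 left out the number was 60 (4.04% of all genes). Against 60 DAF alone 62 members had no overlap (10.2% of all genes), and against 120 DAF alone 43 (8.73%). The rule fixed these directions, so nothing is read from the distance to the background shares.

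Counts were also tested gene by gene with edgeR's quasi-likelihood test, adjusted by the Benjamini-Hochberg method over the 16791 genes, and a gene is called where the adjusted p is under 0.05. For 90 DAF against the average of 60 and 120 DAF, 34 members were called lower (3.57% of all genes) with a median log2 difference of -3.38 over the 76, against 0.03 over all genes. Leaving out 120 DAF replicate 2 gave 51 (3.45% of all genes). Leaving out replicate 2 or 3 of 60 DAF gave 20 or 19 (1.48 or 1.27%). Leaving out replicate 1 or 2 of 90 DAF gave 21 or 19 (1.92 or 1.99%). For 120 against 90 DAF, 46 were called higher (8.19% of all genes), and 52 were when 120 DAF replicate 2 was left out (6.41%). Leaving out replicate 1 or 3 of 120 DAF gave 22 or 28 (2.84 or 3.85%), and replicate 1 or 2 of 90 DAF gave 29 or 28 (6.1 or 6.04%). For 90 against 60 DAF, 9 members were called lower (0.465% of all genes), although 63 had an unadjusted p under 0.05. DESeq2 called 54 there (4.35% of all genes). With edgeR, leaving out 120 DAF replicate 2 gave 25 (0.802% of all genes). Leaving out replicate 1 of that age or replicate 3 of 90 DAF gave 5 (0.162 and 0.108%). Leaving out replicate 1 of 90 DAF gave 2 and replicate 1 of 60 DAF gave 1. Leaving out replicate 2 or 3 of 60 DAF or replicate 3 of 120 DAF gave 0. Over all genes, these last fits called 3, 3, 0, 0 and 1 in the same order, so hardly any gene was called there. With the replicate number as a block, 4 members were called (0.0476% of all genes).

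The same 9 members were called in both steps, lower at 90 than at 60 DAF and higher at 120 than at 90 DAF (0.334% of all genes tested meet both). They are Aco000112, Aco002263, Aco002475, Aco005333, Aco009275, Aco010869, Aco013336, Aco020645 and Aco024209, and those outside the naming rule given with the processing were chosen after their values were seen. Their annotations share little: a nitrogen compound transporter, a secreted growth factor, a potassium transporter, a membrane protein kinase, a serine carboxypeptidase, a transcription coregulator, and 3 genes with no annotation.

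Aco002475 (contig 5, 1319264 to 1319772, minus strand), a short gene with no annotation, had 125, 145 and 268 FPKM at 60 DAF, 15.9, 26.3 and 21.4 FPKM at 90 DAF and 384, 358 and 394 FPKM at 120 DAF. The 3 ages did not overlap, and the 120 DAF libraries lay close together, replicate 2 included. Its fitted log2 difference of 90 DAF from the average of the other ages was -3.76 ± 0.33 (SE).

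Aco024209 (contig 2, 12793951 to 12807352, plus strand) carries GO terms of a transcription coregulator with histone acetyltransferase activity, a class of enzyme that acetylates histones to open chromatin for transcription. It had 144, 354 and 378 FPKM at 60 DAF, 18.8, 28.8 and 9.72 FPKM at 90 DAF and 223, 208 and 225 FPKM at 120 DAF, which made it the most highly expressed member with a GO term. No 90 DAF library came near the other ages, while 60 and 120 DAF overlapped. The fitted difference was -3.90 ± 0.44 on the log2 scale.

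Aco013336 (contig 16, 11163489 to 11168574, plus strand), annotated as a serine carboxypeptidase, an enzyme that trims proteins from their carboxyl end, had 12.6, 16.1 and 16.9 FPKM at 60 DAF, 1.46, 0.667 and 0.606 FPKM at 90 DAF and 17.8, 12.9 and 8.25 FPKM at 120 DAF. All 90 DAF values were far under the others. Its means were 15.2 ± 2.27 FPKM at 60 DAF, 0.910 ± 0.475 FPKM at 90 DAF and 13.0 ± 4.75 FPKM at 120 DAF (SD, n = 3 each).

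Aco009275 (contig 23, 8912371 to 8914752, plus strand), with GO terms of a membrane serine/threonine kinase and carbohydrate binding, had 7.98, 7.98 and 5.49 FPKM at 60 DAF, 2.89, 1.38 and 1.77 FPKM at 90 DAF and 20.5, 24.1 and 16.5 FPKM at 120 DAF. The ages did not overlap, and here too replicate 2 of 120 DAF was not low. Aco005333, a model marked as not translated, had 14.7, 19.3 and 20.2 FPKM at 60 DAF, 2.14, 2.94 and 2.01 FPKM at 90 DAF and 5.15, 9.39 and 8.88 FPKM at 120 DAF. Its ratio of the 120 to the 60 DAF mean, 0.435, was the lowest of the 9, and every 120 DAF library lay between the other ages.

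**Figure D2:**
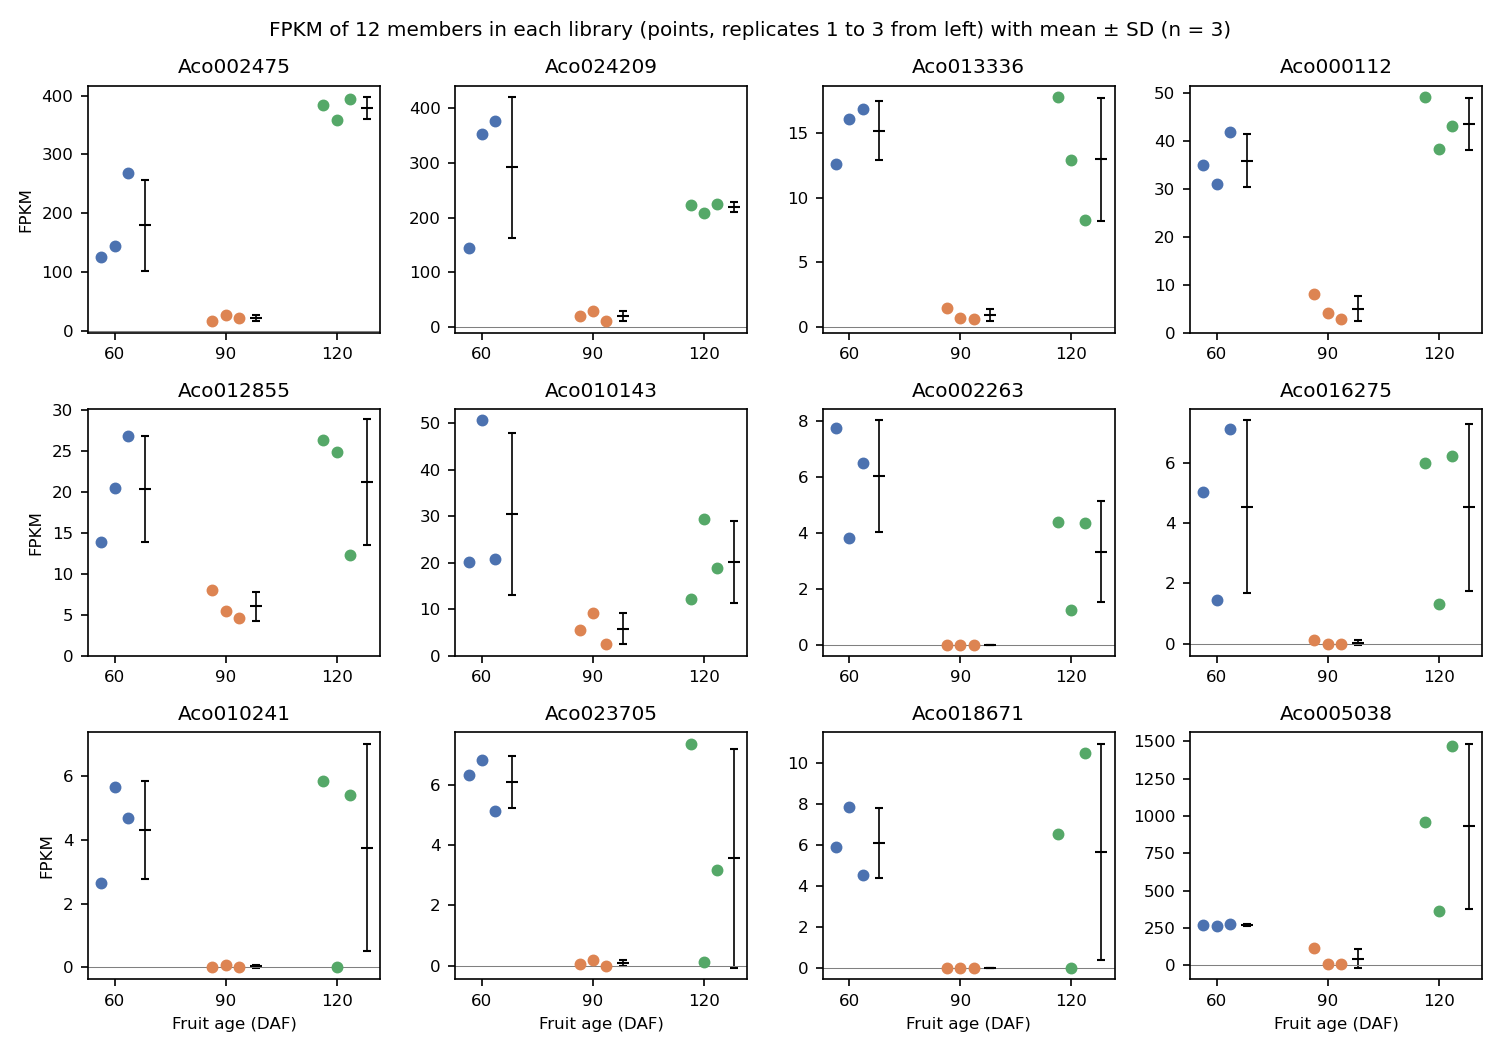
FPKM (y axes, linear from 0) of 12 members at 60, 90 and 120 DAF, with points for replicates 1 to 3 from left to right and a bar for the mean ± SD (n = 3). Aco002475, Aco024209, Aco013336 and Aco000112 are high in all 3 libraries of 120 DAF, whereas Aco010241, Aco023705 and Aco018671 have 120 DAF replicate 2 at or near 0.

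Membrane and transport terms were carried by many of the members. Of the 49 members with any GO term, 21 carry a membrane term (42.9%, against 31.8% of the unassigned genes within the same level bounds), and 7 carry a general transport term (14.3%, against 4.47%). Counting every GO term that names transport or a channel, electron transport aside, gives 12 members. That wider count was made among the members only, so the 4.47% is no background for it. EdgeR called 5 of the 12 for 90 DAF against the average of the other ages (3.57% of all genes), and DESeq2 called 10 (8.87%). Of the 12, 5 had no overlap (3.13% of all genes). All of this was in the direction the rule had fixed. With edgeR, leaving out 120 DAF replicate 2 gave 8 calls (3.45%). Leaving out replicate 1 of 120 DAF or replicate 1 or 3 of 60 DAF gave 3 (1.63, 1.48 and 1.27%). Leaving out replicate 1 or 2 of 90 DAF gave 2 (1.92 and 1.99%). These shares describe the list and were not tested.

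Nitrogen is represented by 2 members. Aco000112 (contig 13, 4583408 to 4587134, minus strand), a transmembrane transporter of nitrogen compounds, had 34.9, 30.9 and 41.8 FPKM at 60 DAF, 8.04, 4.15 and 2.86 FPKM at 90 DAF and 49.1, 38.3 and 43.1 FPKM at 120 DAF. Aco003577, annotated to nitrate transport and the response to nitrate, had 2.36, 7.27 and 5.17 FPKM at 60 DAF, 0.389, 0.997 and 1.48 FPKM at 90 DAF and 11.2, 9.59 and 10.4 FPKM at 120 DAF. Both dipped with no overlap in any library, and both came back evenly in the 3 libraries of 120 DAF.

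A sulfate and a phosphate carrier were uneven at 120 DAF. Aco023705 (contig 3, 8594524 to 8629456, plus strand), described as a probable sulfate transporter 3.3, had 6.34, 6.82 and 5.14 FPKM at 60 DAF, 0.0665, 0.201 and 0 FPKM at 90 DAF and 7.36, 0.131 and 3.18 FPKM at 120 DAF. Aco018671, an inorganic phosphate transporter by GO, had 5.90, 7.88 and 4.52 FPKM at 60 DAF, no read at 90 DAF, and 6.52, 0 and 10.5 FPKM at 120 DAF. In both, 120 DAF replicate 2 fell among the 90 DAF libraries, and the other 120 DAF libraries were at 3.18 FPKM or more.

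Potassium is moved by 2 members of different kinds. Aco020645, a potassium ion transporter, had 11.7, 34.3 and 28.1 FPKM at 60 DAF, 2.21, 4.50 and 2.14 FPKM at 90 DAF and 19.4, 7.79 and 11.996 FPKM at 120 DAF, with no overlap of 90 DAF with either age. Aco005466, a voltage-gated potassium channel by GO, had 62.0, 28.1 and 7.32 FPKM at 60 DAF, 2.43, 2.71 and 10.8 FPKM at 90 DAF and 19.3, 23.1 and 102 FPKM at 120 DAF. The highest 90 DAF library of the channel lay above the lowest 60 DAF library, so its dip was in the means and not in every library.

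The most abundant transporter of the list was a zinc carrier. Aco000559 (contig 13, 1028812 to 1033962, minus strand) had 249, 93.5 and 66.8 FPKM at 60 DAF, 2.90, 0.478 and 17.6 FPKM at 90 DAF and 31.7, 5.09 and 178 FPKM at 120 DAF. A second zinc transporter, Aco015219, had 30.8, 14.4 and 21.2 FPKM at 60 DAF, 4.35, 3.53 and 7.48 FPKM at 90 DAF and 37.6, 14.4 and 39.0 FPKM at 120 DAF. The 90 DAF libraries overlapped 120 DAF in the first of these through replicate 2, and lay below all others in the second. Aco003929, annotated to metal ion transport, had 11.8, 20.8 and 25.3 FPKM at 60 DAF, 0.0751, 0.352 and 0 FPKM at 90 DAF and 108, 0 and 37.5 FPKM at 120 DAF. Its dip was 80.1, although 1 library of 120 DAF had no read.

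Aco003807 (contig 16, 3937793 to 3943883, minus strand), an ATP-driven calcium pump that binds calmodulin by GO, had 156, 75.2 and 23.1 FPKM at 60 DAF, 7.56, 24.9 and 41.9 FPKM at 90 DAF and 9.66, 24.4 and 190.3 FPKM at 120 DAF. Its libraries of all ages overlapped widely, and its dip of 3.01 was the smallest of the list. Aco005793, annotated to carbohydrate transport in the plasma membrane, had 3.36, 6.88 and 3.71 FPKM at 60 DAF, 0.389, 0.579 and 2.36 FPKM at 90 DAF and 3.25, 3.12 and 25.5 FPKM at 120 DAF. Here the 90 DAF libraries lay below all others, but 1 library carried most of the 120 DAF mean.

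Aco010241 (contig 25, 10324156 to 10327323, plus strand) is described as WALLS ARE THIN 1, which in Arabidopsis is an auxin transporter of the vacuole membrane needed for secondary wall thickening. It had 2.64, 5.65 and 4.68 FPKM at 60 DAF, 0, 0.0841 and 0 FPKM at 90 DAF and 5.86, 0 and 5.42 FPKM at 120 DAF. Replicate 2 of 120 DAF was at 0, as were 2 of the libraries of 90 DAF, and 6 counts over the 3 libraries make up its 90 DAF level. Another gene of wall synthesis by GO, Aco000884, with a cellulose synthase term, had 45.5, 62.0 and 58.5 FPKM at 60 DAF, 29.3, 13.1 and 8.83 FPKM at 90 DAF and 73.4, 94.9 and 54.9 FPKM at 120 DAF. That gene dipped without overlap, and its 120 DAF replicate 2 was the highest of the 9 libraries.

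Proteolysis terms were carried by 5 members (10.2% of those with GO, against 3.46% of unassigned genes within the level bounds). For 90 DAF against the average of the other ages, edgeR called 2 (3.57% of all genes) and DESeq2 5 (8.87%). The rule had fixed that direction. With edgeR, leaving out 120 DAF replicate 2 gave 4 calls (3.45%), and replicate 2 of 90 DAF gave 1 (1.99%). Aco016275 (contig 4, 11241663 to 11247565, minus strand), described as the beta-isozyme of vacuolar-processing enzyme, belongs to a family of cysteine proteases that mature proteins in the vacuole. It stayed in the list because the table gives it a peptidase term and not the cysteine-type term that the rule excludes. It had 5.02, 1.46 and 7.13 FPKM at 60 DAF, 0.123, 0 and 0 FPKM at 90 DAF and 5.99, 1.33 and 6.23 FPKM at 120 DAF. Every 90 DAF library lay below the rest, with 11 counts in the 3 together.

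The other proteases were less even. Aco024880, an aspartic endopeptidase, had 11.4, 19.8 and 11.01 FPKM at 60 DAF, 0, 0.185 and 0.324 FPKM at 90 DAF and 24.0, 0.104 and 17.1 FPKM at 120 DAF. Aco009858, another aspartic endopeptidase, had 8.17, 9.43 and 9.39 FPKM at 60 DAF, 0.207, 1.15 and 0 FPKM at 90 DAF and 6.20, 0.614 and 3.49 FPKM at 120 DAF. Aco022157, a serine endopeptidase, had 7.90, 28.2 and 14.3 FPKM at 60 DAF, 1.24, 1.38 and 0.770 FPKM at 90 DAF and 13.3, 0.0588 and 6.62 FPKM at 120 DAF. In all 3 the 60 DAF libraries lay above 90 DAF, and 120 DAF replicate 2 fell within or under the 90 DAF range.

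Kinases, which pass signals by phosphorylating proteins, numbered 3 (6.12% of those with GO, against 6.59% of unassigned genes within the level bounds). All 3 were called by edgeR for 90 DAF against the average of the other ages, as were 3.57% of all genes, in a direction the rule had fixed. Leaving out any 60 DAF library (1.27 to 1.48% of all genes) or replicate 3 of 90 DAF (2.7%) gave 1 call. Leaving out replicate 1 or 3 of 120 DAF (1.63 and 1.72%) or replicate 1 of 90 DAF (1.92%) gave 2. Besides Aco009275, Aco000177 (contig 13, 3982564 to 3985094, plus strand) had 14.8, 13.2 and 11.1 FPKM at 60 DAF, 7.37, 0.759 and 2.35 FPKM at 90 DAF and 43.5, 20.9 and 38.0 FPKM at 120 DAF. Aco009856 had 10.9, 10.4 and 9.12 FPKM at 60 DAF, 0.541, 1.28 and 0.374 FPKM at 90 DAF and 8.69, 1.26 and 3.36 FPKM at 120 DAF. The ages of Aco000177 did not overlap, and Aco009856 overlapped at 120 DAF through replicate 2.

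Regulation of transcription was a term of 5 members (10.2%, against 3.24%). In that contrast edgeR called 3 (3.57% of all genes) and DESeq2 5 (8.87%), again in the direction the rule had fixed. EdgeR called 5 with 120 DAF replicate 2 left out (3.45%) and 1 with replicate 2 of 90 DAF left out (1.99%). Besides Aco024209, Aco005059 (contig 8, 1733021 to 1740490, plus strand), a DNA-binding protein by GO, had 13.8, 35.2 and 49.9 FPKM at 60 DAF, 9.27, 5.06 and 12.4 FPKM at 90 DAF and 30.2, 21.1 and 41.2 FPKM at 120 DAF. Aco011636, with a zinc-binding term, had 85.6, 48.9 and 49.5 FPKM at 60 DAF, 9.09, 3.26 and 2.28 FPKM at 90 DAF and 181, 47.0 and 31.0 FPKM at 120 DAF. In both genes the 90 DAF libraries lay below all others. Aco016738 and Aco010531, both with a nuclear DNA-binding term, overlapped at 120 DAF, where replicate 2 had 1.02 and 0.137 FPKM.

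Members with a named chloroplast or metabolic role were few. Aco010143 (contig 25, 10983716 to 10984430, minus strand), described as PROTON GRADIENT REGULATION 5, which in Arabidopsis supports cyclic electron flow around photosystem I, had 20.1, 50.6 and 20.7 FPKM at 60 DAF, 5.66, 9.21 and 2.61 FPKM at 90 DAF and 12.2, 29.5 and 18.8 FPKM at 120 DAF. It was low at 90 DAF in every library, the age at which the summed light-harvesting genes were highest. Aco012855, described as a homolog of nudix hydrolase 8, of a family that cleaves nucleoside diphosphates linked to other groups, had 13.9, 20.5 and 26.9 FPKM at 60 DAF, 8.003, 5.48 and 4.65 FPKM at 90 DAF and 26.4, 24.9 and 12.4 FPKM at 120 DAF. Its dip was shallow but without overlap.

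Several GO groups had no member at all, among them oxidoreductase, heme, glycosyl hydrolase, RNA binding and ribosome terms. Of the unassigned genes with GO within the level bounds, 3.32, 0.688, 0.942, 4.0 and 0.688% carry these terms. Among 49 members such shares would place few, so nothing is read from their absence. Protein binding was carried by 3 members (6.12% of those with GO, against 18.2% of unassigned genes within the level bounds). No term was assigned to 27 members, and 64.5% of the members had a term, against 67.2% of the unassigned genes within the level bounds.

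The 5 members with no read at 90 DAF allow a lower bound, for which the age was given 3 counts in all. Aco002263 (contig 5, 2879739 to 2882739, minus strand), whose GO terms are growth factor activity, extracellular region and cell proliferation, had 7.74, 3.83 and 6.47 FPKM at 60 DAF, 0 in each library of 90 DAF and 4.38, 1.23 and 4.34 FPKM at 120 DAF. Its counts were at least 85.5-fold lower at 90 than at 60 DAF, and at least 56.0-fold higher at 120 than at 90 DAF. All 6 libraries outside 90 DAF held reads.

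The other 4 were uneven outside 90 DAF. Aco000188, a membrane protein, had 3.76, 8.11 and 9.44 FPKM at 60 DAF and 19.4, 0.201 and 4.95 FPKM at 120 DAF. Its levels at 90 DAF were at least 119.6-fold lower than at 60 DAF, and those at 120 DAF at least 159.9-fold higher than at 90 DAF. Aco010576, with an electron transfer term, had 0, 20.4 and 15.0 FPKM at 60 DAF and 5.52, 0 and 54.1 FPKM at 120 DAF. Its ratio of means, each plus 0.1, was 119, which rests on the 0.1 added at 90 DAF, and 1 library of each of the other ages also lacked reads. By counts it was at least 224-fold lower at 90 than at 60 DAF and at least 491-fold higher at 120 than at 90 DAF. Aco018671, described above, was at least 532-fold lower at 90 than at 60 DAF and at least 599-fold higher at 120 than at 90 DAF.

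Aco013875 needs its neighbour's values beside it. It had 18.3, 15.9 and 11.5 FPKM at 60 DAF, 0 in each library of 90 DAF and 0, 15.4 and 0 FPKM at 120 DAF. The model spans contig 9 from 9356566 to 9362796, and Aco025968 spans the very same bases on the same strand. Aco025968 had 20.3, 25.2 and 15.3 FPKM at 60 DAF, 61.2, 56.8 and 68.2 FPKM at 90 DAF and 15.5, 17.9 and 23.7 FPKM at 120 DAF, so every 90 DAF library lay above the other ages. Aco013875 also had no read in 120 DAF replicates 1 and 3, where Aco025968 had 15.5 and 23.7 FPKM. How reads were divided between such models is not stated, and its part in this dip was not tested.

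In all, 12 members share bases with another gene model, 3 on the same strand and 10 on the opposite strand, and the strand setting of the counting is not given either. Aco001891 had 14.7, 2.77 and 14.0 FPKM at 60 DAF, 1.20, 0.422 and 1.40 FPKM at 90 DAF and 20.5, 0.192 and 0.534 FPKM at 120 DAF. The model inside its span, Aco027659, had no read at 60 DAF, 3.32, 11.8 and 15.2 FPKM at 90 DAF and 0, 4.02 and 18.3 FPKM at 120 DAF. At 120 DAF each was high where the other was low. Aco028002 had 10.6, 0.244 and 0.0601 FPKM at 60 DAF, 0.203, 0.230 and 0.270 FPKM at 90 DAF and 2.96, 5.55 and 4.61 FPKM at 120 DAF, while Aco014458, which overlaps it, had 8.44, 15.1 and 6.57 FPKM at 60 DAF, 23.8, 44.5 and 38.2 FPKM at 90 DAF and 1.32, 2.06 and 5.503 FPKM at 120 DAF. Other models on its strand overlap Aco028002 too, and they differed in profile. Mean FPKM at 60, 90 and 120 DAF was 3.02, 4.46 and 2.15 for Aco014462 and 0.720, 2.45 and 0.741 for Aco028004. In the same order, Aco014461 had 1.93, 0.148 and 0.669 FPKM, lowest at 90 DAF. A single library carried the 60 DAF mean of Aco028002. Without the 3 members that overlap on the same strand, 73 remained.

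Several highly expressed members have no GO term or only a general one. Aco005038 (contig 8, 1611401 to 1612120, plus strand) had 268, 267 and 276 FPKM at 60 DAF, 118, 12.1 and 8.34 FPKM at 90 DAF and 963, 366 and 1469 FPKM at 120 DAF, the highest level of any member. The ages did not overlap, and the 90 DAF mean of 46.2 ± 62.3 FPKM (SD, n = 3) came mostly from replicate 1. Aco011407, with a catalytic activity term, had 68.9, 79.4 and 84.1 FPKM at 60 DAF, 8.90, 4.26 and 10.2 FPKM at 90 DAF and 300.2, 55.6 and 144 FPKM at 120 DAF. Aco013372 had 21.6, 18.1 and 92.9 FPKM at 60 DAF, 8.08, 1.82 and 4.53 FPKM at 90 DAF and 207, 137 and 180.0 FPKM at 120 DAF. In both, all 90 DAF libraries were below all others, and 60 and 120 DAF differed in spread.

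How far the members returned at 120 DAF was bounded only loosely by the rule. The ratio of the 120 to the 60 DAF mean had a median of 1.08 and ran from 0.196 to 5.40, with 52 members within 2-fold, 14 above and 10 below. The median log2 difference of 120 from 60 DAF over the members was 0.43 with edgeR's TMM scaling and 0.11 with total-count scaling, which moved the median of all genes to -0.29. With limma on log2(FPKM + 1) and log2(FPKM + 0.1), which change the measure and the test as well, it was -0.07 and -0.12. Without 120 DAF replicate 2 it was 0.74 with TMM.

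With edgeR, 3 members were called higher at 120 than at 60 DAF (4.25% of all genes), with 8 members at an unadjusted p under 0.05, and 0 were called lower (5.22% of all genes), with 1 member at an unadjusted p under 0.05. DESeq2 and limma each called 1 lower, as did edgeR with 120 DAF replicate 2 left out. Over all genes, 10.9% were called lower with DESeq2 and 4.43% by edgeR with that library left out. With limma on log2(FPKM + 1) and log2(FPKM + 0.1), 9.54 and 10.3% were. Aco009275 was 1.78 ± 0.29 higher on the log2 scale (SE, edgeR adjusted p = 0.0117), and no single library left out ended that call. Aco002475 was 1.37 ± 0.31 higher (edgeR adjusted p = 0.0341), and its edgeR adjusted p was 0.0984, 0.0547 and 0.0911 when replicate 1, 2 or 3 of 120 DAF was left out, and 0.0875 and 0.123 when replicate 1 or 2 of 60 DAF was. Aco030868 (contig 15, 8859105 to 8862855, plus strand), a transferase by GO, had 3.81, 2.46 and 3.52 FPKM at 60 DAF, 0.501, 0.254 and 0.323 FPKM at 90 DAF and 26.2, 5.84 and 18.2 FPKM at 120 DAF. It was 2.65 ± 0.54 higher at 120 than at 60 DAF on the log2 scale (edgeR adjusted p = 0.0247), with adjusted p-values by edgeR of 0.0760 and 0.0669 when replicate 1 or 3 of 120 DAF was left out, and of 0.0616, 0.0996 and 0.0868 when replicate 1, 2 or 3 of 60 DAF was. The count of 3 was 1 without 120 DAF replicate 1 or 3 or 60 DAF replicate 2 (1.15, 1.4 and 0.843% of all genes).

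**Figure D3:**
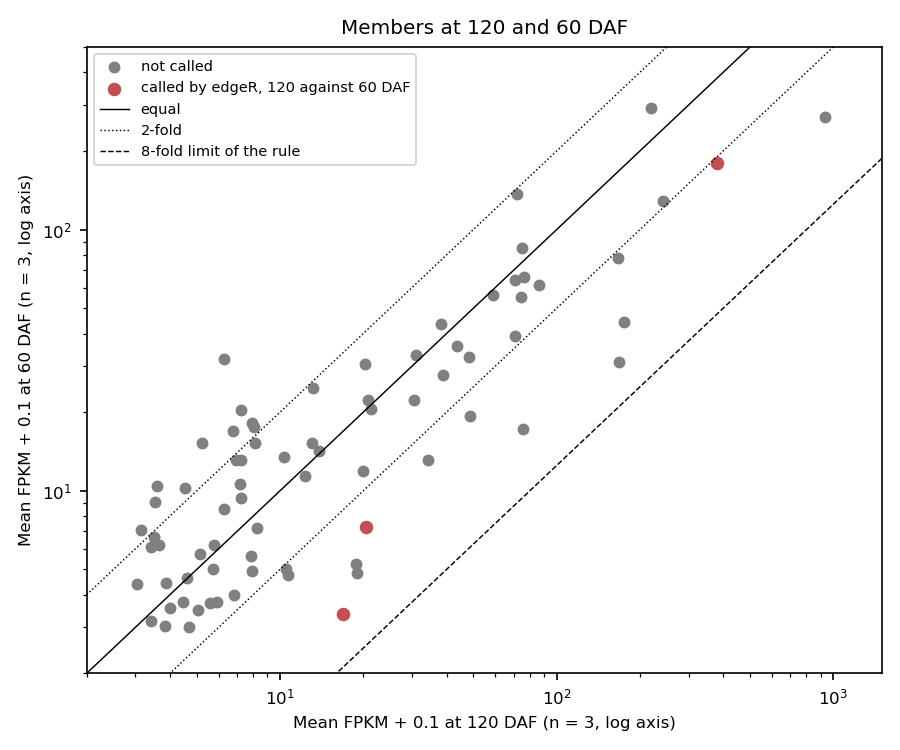
Mean FPKM + 0.1 at 120 DAF (x axis, log) against 60 DAF (y axis, log) for the 76 members, with lines for equal means, 2-fold differences and the 8-fold limit of the rule. Most points (52) lie within the 2-fold lines, and the 3 members called by edgeR for 120 against 60 DAF are in red.

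The highest ratio of 120 to 60 DAF belonged to Aco003790, which has no GO term and had 34.2, 14.0 and 44.5 FPKM at 60 DAF, 22.5, 3.74 and 2.05 FPKM at 90 DAF and 322, 58.1 and 122 FPKM at 120 DAF. Aco021391, also without a term, had 10.1, 9.45 and 31.8 FPKM at 60 DAF, 1.21, 0 and 11.5 FPKM at 90 DAF and 127, 12.9 and 86.9 FPKM at 120 DAF. A model marked as not translated, Aco000853, had 8.92, 0.436 and 4.84 FPKM at 60 DAF, 1.66, 1.297 and 0 FPKM at 90 DAF and 34.5, 3.65 and 18.4 FPKM at 120 DAF. All 3 had at least 1 library of 90 DAF above the lowest of 60 DAF.

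At the other end, Aco004385 had 25.1, 28.9 and 41.7 FPKM at 60 DAF, 1.32, 4.46 and 0.0676 FPKM at 90 DAF and 10.1, 1.35 and 7.08 FPKM at 120 DAF, a ratio of 0.196. Aco014894, with a protein dimerization term, had 11.3, 12.9 and 6.87 FPKM at 60 DAF, 0, 0.0519 and 0.259 FPKM at 90 DAF and 6.17, 0 and 4.32 FPKM at 120 DAF. Aco013997 had 3.93, 24.8 and 32.0 FPKM at 60 DAF, 1.19, 0.521 and 0.151 FPKM at 90 DAF and 14.7, 0.271 and 6.46 FPKM at 120 DAF. In each the 60 DAF libraries stood above 90 DAF, and 120 DAF replicate 2 lay inside or under the 90 DAF range.

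Over the whole list, the median member of 120 DAF replicate 2 was at 24.7% of the mean of the other 120 DAF libraries, whereas the median over all genes was 106%. In 29 members (38.2%, against 2.94% of all genes tested) it held at most 1/4 of each of the other 120 DAF libraries, and in 5 it held no read. In 21 members it reached at least 50% of their mean. It lay at or below the highest 90 DAF library in 32 members and above it in 44. Among the 32 are the sulfate and phosphate transporters, WALLS ARE THIN 1 and the aspartic and serine endopeptidases, and among the 44 are both nitrogen transporters, the serine carboxypeptidase, the vacuolar-processing enzyme and the coregulator Aco024209. Its light-harvesting sum was 36.8 FPKM, beside 38.2 FPKM in replicate 1 of its age, its histone and PCNA sum was 38.8 FPKM, beside 38.5 FPKM in replicate 3, and its cuticle sum lay between theirs. What set this library apart for the members was not tested.

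**Figure D4:**
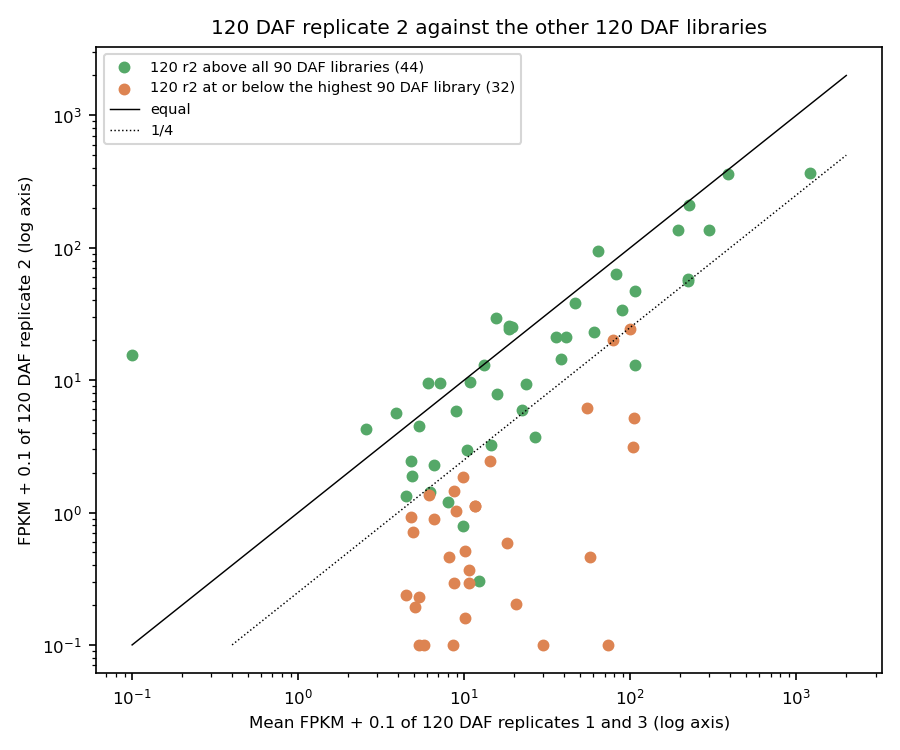
FPKM + 0.1 of 120 DAF replicate 2 (y axis, log) against the mean FPKM + 0.1 of replicates 1 and 3 (x axis, log) for the 76 members, with lines for equal values and for 1/4. The 32 members at or below their highest 90 DAF library, in orange, include most points under the 1/4 line, and the 44 others, in green, lie on both sides of the line of equality. The green point at the far left is Aco013875, whose reads at 120 DAF all came from replicate 2.

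Replicates of the members spread more than those of most genes at each age. The median coefficient of variation was 39.3, 69.1 (71 members with a read at that age) and 74.3% at 60, 90 and 120 DAF, against 16.2, 28.6 and 17.2% for the genes tested that averaged at least 3 FPKM at the age. At 90 DAF the levels compared are unlike, because the rule kept the members low there. Their median mean was 1.10 FPKM, where counting error is larger, so nothing is read from the spread at that age. At 60 and 120 DAF the rule acted on means, so 1 high library could bring a gene into the list. The selection may thus have favoured uneven replicates, and the larger spread at those ages is not read as a trait of the members. A set of 9 members was highest at each age in the same libraries, 60 DAF replicate 1, 90 DAF replicate 3 and 120 DAF replicate 3 (11.8%), a share close to the 9.45% of all genes tested. Among them, Aco004677, a membrane protein, had 141, 16.6 and 11.2 FPKM at 60 DAF, 11.1, 4.13 and 29.98 FPKM at 90 DAF and 67.1, 20.1 and 89.5 FPKM at 120 DAF. Its highest 90 DAF library was above 2 of the 60 DAF libraries.

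Members lay on 21 of the 25 contigs, and 6 pairs were neighbours with at most 2 gene models between them. Aco008668 and Aco008670 (contig 10, 1433113 to 1433870 and 1451357 to 1452117, minus strand), both without a GO term, shared an uneven profile. Aco008668 had 5.92, 181 and 4.19 FPKM at 60 DAF, 8.46, 1.04 and 1.68 FPKM at 90 DAF and 89.2, 33.9 and 89.3 FPKM at 120 DAF. Aco008670 had 28.2, 344 and 14.6 FPKM at 60 DAF, 34.3, 0.798 and 7.71 FPKM at 90 DAF and 291, 136 and 302 FPKM at 120 DAF. In each gene 60 DAF replicate 2 carried the 60 DAF mean, and 90 DAF replicate 1 was above the other 60 DAF libraries.

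Aco001307 and Aco001308 on contig 3, on opposite strands, were both low in 120 DAF replicate 2. Aco001308, with a calcium-binding term, had 30.6, 42.8 and 43.9 FPKM at 60 DAF, 2.76, 4.97 and 0 FPKM at 90 DAF and 149, 3.02 and 60.2 FPKM at 120 DAF. Aco001307, marked as not translated, had 12.1, 15.4 and 6.29 FPKM at 60 DAF, 0.107, 1.27 and 0.389 FPKM at 90 DAF and 22.7, 0.485 and 13.5 FPKM at 120 DAF. Both put 120 DAF replicate 1 highest of the 9 libraries.

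Aco005039, a membrane protein 1962 bases from Aco005038, had 3.20, 4.80 and 7.44 FPKM at 60 DAF, 2.55, 0.192 and 0 FPKM at 90 DAF and 21.98, 9.33 and 25.1 FPKM at 120 DAF, and like its neighbour was highest at 90 DAF in replicate 1. Aco024210 overlaps Aco024209 by 1368 bases on the opposite strand and had 2.70, 7.06 and 6.87 FPKM at 60 DAF, 0.943, 1.48 and 0.184 FPKM at 90 DAF and 8.97, 5.78 and 8.62 FPKM at 120 DAF. Since strand is unknown, reads of this untranslated model and of its far more abundant partner cannot be told apart where they overlap. The kinase Aco009856 and the protease Aco009858 lie on contig 11, and Aco009857, a model inside the span of Aco009856, had no read. The membrane proteins Aco027340 and Aco027342, also on contig 11, had 0.212 to 0.309 and 0.151 to 0.425 FPKM at 90 DAF. Reads shared between similar genes could not be traced, so levels of near-identical copies are uncertain.

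**Figure D5:**
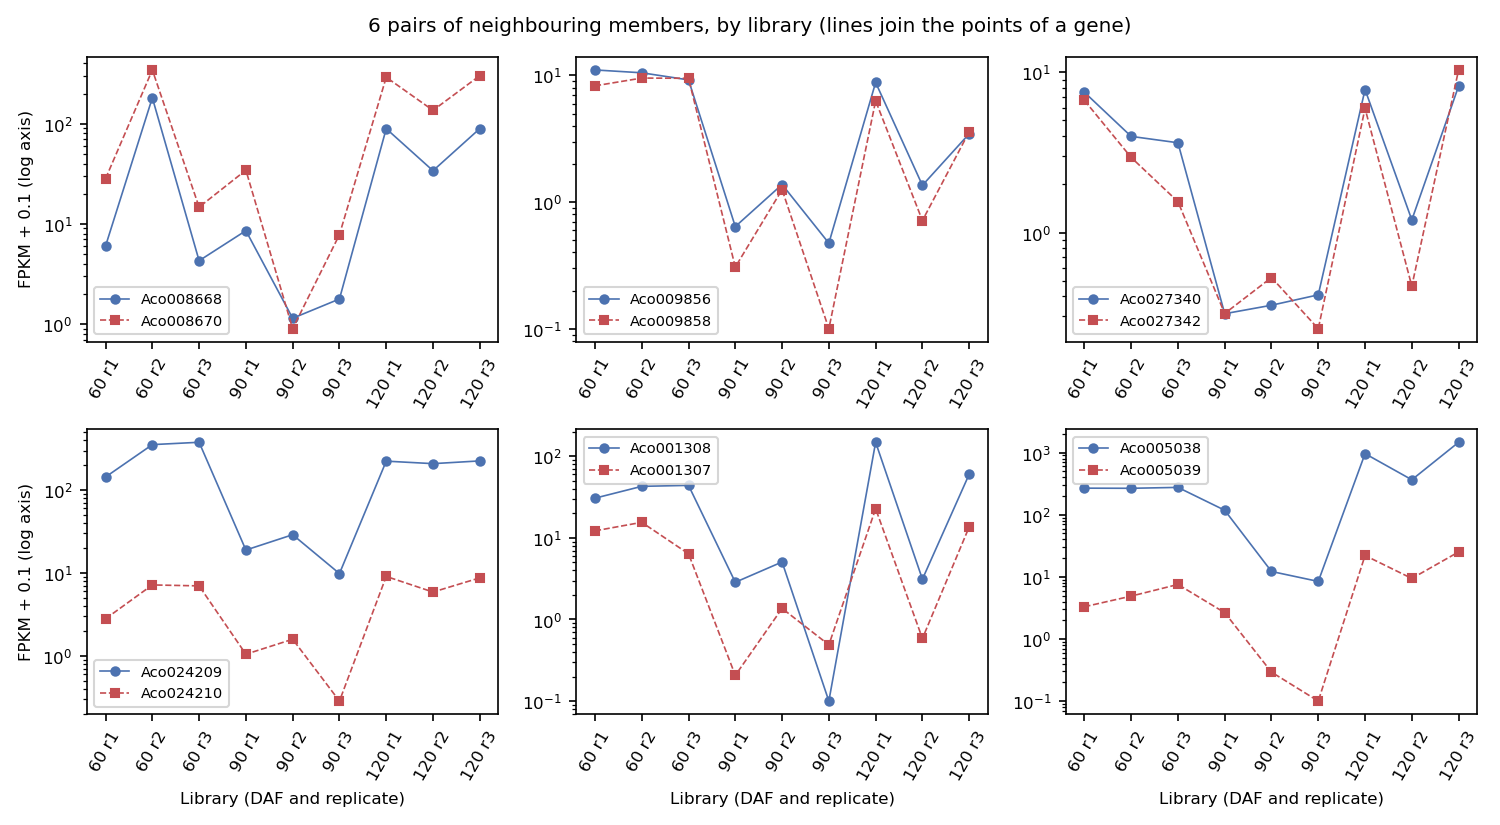
FPKM + 0.1 (y axes, log) in the 9 libraries (x axes) for 6 pairs of neighbouring members, with 1 line per gene joining its points. Aco008668 and Aco008670 peak together in 60 DAF replicate 2, and Aco001307 and Aco001308 drop together in 120 DAF replicate 2.

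Just inside the 3-fold threshold were Aco003807, Aco004385 and Aco014264, with dips of 3.01, 3.06 and 3.08. Just outside were Aco003999, Aco000863 and Aco022546, with 2.99, 2.99 and 2.95. Aco000863, a protein-binding gene by GO, had 159, 245 and 337 FPKM at 60 DAF, 119, 52.0 and 76.6 FPKM at 90 DAF and 248, 367 and 244 FPKM at 120 DAF, above most members in level.

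Dipping genes made up 0.925% of the 8219 unassigned genes that met the level bounds. Genes with a KEGG ortholog gave 37 of 4428 (0.836%) under the same inequalities, and the difference between these shares was not tested. The opposite pattern was met by 229 unassigned genes, with 90 DAF at least 3-fold above both other ages and averaging at least 3 FPKM. Its minimum level applied at 90 DAF only, so this count is not like for like with that of the dipping genes. No share is given for it.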

How the data were processed

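Peel RNA of pineapple was sequenced in 9 libraries, 3 for each of 3 ages. The deposited table holds whole-number counts per gene and the authors' FPKM values, per the file headers. Where the count is 0 the deposited FPKM is 0.0001, which was set to 0. The submitters' processing notes name Bowtie 0.12.2, HISAT2 2.0 and StringTie 1.3.0 with no roles. The genome build and strand handling were not stated. The RefSeq gene table shares no identifier with the deposited one and was not used.

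Members were selected on deposited FPKM, with 0.1 added to each mean. The deposited counts went into edgeR's quasi-likelihood test with TMM scaling, in 1 fit of the 9 libraries over the 16791 genes that reached 1 FPKM in 3 or more libraries, a filter that all 76 members passed. Benjamini-Hochberg adjustment covered every gene tested, and the threshold was 0.05. Contrasts were the 3 pairs of ages and 90 DAF against the average log2 level of the other ages. A standard error is the log2 difference divided by the square root of F. Printed FPKM values do not carry the TMM scaling and fold changes do. Where an age had no read, the fold is a lower bound that gives the age 3 counts in all, which covers counting error only. The test was checked on simulated counts.

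The members, the GO groups and the tests were chosen with earlier results of these data known. The naming rule takes the 8 deepest dips, the 8 highest levels, members with a product name, the 5 highest and 5 lowest ratios of 120 to 60 DAF, the highest member of each GO group with at least 3 members, and the genes beside the threshold, 32 members in all. The other members named were chosen after their values were seen. Alternatives were other scalings, filters, pseudocounts and rule settings, DESeq2, limma, the replicate block and each library left out. The software was Python 3.11.15 with pandas 2.3.3 and matplotlib 3.10.9, and R 4.3.3 with edgeR 4.0.16, DESeq2 1.42.0 and limma 3.58.1.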

Additional observations from a re-analysis of the deposited data

How the results depend on the processing

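A minimum fold of 2 in place of 3 gave 155 members, and leaving out 1 library gave 60 to 121 (121 without 90 DAF replicate 3, 67 of them among the 76). The median of the libraries of an age in place of the mean gave 87, of which only 58 were among the 76. With 1 added to each mean there were 60, 58 of them among the 76. FPKM divided by the TMM factor gave 85, 73 of them among the 76. For 90 against 60 DAF, the 9 members called lower were 54 with DESeq2 (4.35% of all genes). They were 16 and 17 with limma on log2(FPKM + 0.1) and log2(FPKM + 1) (0.649 and 0.893%). With 1 library left out they were 0 to 25 (0 to 0.894%). For 120 against 90 DAF, the 46 called higher were 27 with only those ages in the fit (3.48% of all genes). With 1 library left out they were 22 to 52 (2.84 to 7.84%). For 120 against 60 DAF, the 3 called higher were 5 with DESeq2 (9.36% of all genes) and 6 with only those ages in the fit (8.11%). With 1 library left out they were 1 to 4 (0.843 to 7.2%). The 0 called lower were 1 with DESeq2 (10.9%), with limma on either scale (10.3 and 9.54%) and with total-count scaling (8.97%). With 1 library left out they were 0 to 1 (1.59 to 7.64%). For 90 DAF against the average of the other ages, the 34 called lower were 63 with DESeq2 (8.87% of all genes). With 1 library left out they were 19 to 51 (1.27 to 3.45%). The cause was not tested. None of the 32 members named by rule reversed for 90 DAF against the average of the other ages, and none of the 12 followed for 120 against 60 DAF. Single members were not followed in the other contrasts, where 2 members had a log2 difference above 0 for 90 against 60 DAF without 60 DAF replicate 1, and 1 member was not above 0 for 120 against 90 DAF without any 1 of the 120 DAF libraries. No clear pairing of libraries by replicate number was seen. Deviations of libraries with the same number correlated at -0.339 to 0.39 over 9 pairs, against -0.36 to 0.312 over 18 pairs with different numbers. Such overlapping ranges cannot exclude a pairing. With the replicate number as a block, the counts were 4 for 90 against 60 DAF, 31 for 120 against 90 DAF, 3 higher and 0 lower for 120 against 60 DAF, and 24 for the dip. Over all genes the shares were 0.0476, 5.28, 2.48, 3.45 and 1.57% in that order. Depth limits the 11 members with at most 20 counts at 90 DAF. The minimum read before 0.1 is added (73 members) and the removal of same-strand overlaps (73) were chosen after the data were seen.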

Other observations

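The same inequalities were met by 38 genes outside the list, which carry a KEGG ortholog or an excluded GO term. Of these, edgeR called 24 lower at 90 DAF than the average of 60 and 120 DAF (3.57% of all genes tested), and 25 had no overlap (3.13%), in a direction that the inequalities fixed. Phosphoenolpyruvate carboxylase (Aco010025), which fixes carbon into organic acids, had 684, 801 and 1076 FPKM at 60 DAF, 193, 178 and 54.2 FPKM at 90 DAF and 451, 513 and 505 FPKM at 120 DAF. Sucrose synthase (Aco006349) had 497, 660 and 700.1 FPKM at 60 DAF, 128.7, 129.3 and 38.1 FPKM at 90 DAF and 508, 458 and 427 FPKM at 120 DAF. In both genes every 90 DAF library lay below all others, and 120 DAF replicate 2 was not low.

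Sucrose-phosphate synthase (Aco017378) had 157, 36.1 and 69.6 FPKM at 60 DAF, 2.80, 7.51 and 0.778 FPKM at 90 DAF and 104, 124 and 67.4 FPKM at 120 DAF. An Aux/IAA gene (Aco005634), of the repressors of auxin response, had 26.2, 31.0 and 49.9 FPKM at 60 DAF, 2.81, 2.24 and 1.94 FPKM at 90 DAF and 86.4, 60.2 and 40.9 FPKM at 120 DAF. A chitinase (Aco011824) had 77.4, 120 and 83.5 FPKM at 60 DAF, 13.5, 15.1 and 16.5 FPKM at 90 DAF and 249, 82.7 and 139 FPKM at 120 DAF. These 3 did not overlap between 90 DAF and the other ages. Over the 38 genes, 120 DAF replicate 2 was the lowest of its age in 23 (60.5%, against 26.3% of all genes tested). These genes were chosen after their values were seen.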
